A study of Mus musculus with 6 samples.

Results

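The mast cell genes of brown adipose tissue (BAT) were compared between sST2-KO mice and their WT littermates. They were 9 genes, found by symbol among the 35976 rows of the count table: the granule proteases Cpa3, Mcpt4, Cma1, Tpsb2 and Tpsab1, the growth factor receptor gene Kit, the high-affinity IgE receptor genes Fcer1a and Ms4a2, and Hdc, which encodes histidine decarboxylase. All 9 had a row, and 6 of them passed edgeR's expression filter and were tested with 14542 genes in all. The filter removed Tpsab1, Fcer1a and Ms4a2, whose counts are given below. RNA-seq was performed on BAT from 3 WT and 3 sST2-KO mice of the C57BL/6J background, about 10 weeks old. In the sST2-KO mice, CRISPR/Cas9 had deleted the intron that joins exons 8 and 9 of Il1rl1, meant to remove the soluble form of the IL-33 receptor (sST2) and to spare the membrane form (ST2L). The deposited sample titles call these libraries ST2-KO, and counts per gene cannot tell the forms apart. Every mouse of both groups had its BAT surgically denervated and was then kept at 10 °C for 8 h, so innervated BAT and BAT of mice kept warm are not part of the comparison. The deletion is carried by all cells of the mouse, not by mast cells alone.

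Mast cells are long-lived immune cells of connective tissue that develop from blood-borne progenitors and depend on KIT, the receptor of stem cell factor. They store proteases, histamine and serglycin-bound mediators in granules and release them when antigen crosslinks IgE on the high-affinity IgE receptor. They also carry ST2L, through which the alarmin IL-33 acts on them, while sST2 binds IL-33 as a decoy. In mice, connective tissue mast cells are known for Cpa3, Mcpt4, Cma1 and the tryptases, and mucosal mast cells for Mcpt1 and Mcpt2. Kit and Hdc are not particular to mast cells, since KIT also marks progenitors and melanocytes and histidine decarboxylase is made by other myeloid cells.

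The transcription factors GATA1, GATA2 and MITF are known regulators of mast cell genes. The 250 bases before the annotated start of each gene were therefore read from GRCm39, the build of the deposited counts. Both strands were searched for the GATA hexamers AGATAA and TGATAA. They were also searched for the E-boxes CACGTG and CATGTG, the latter being letters that MITF can bind. Other GATA hexamers, such as AGATAG, were not searched for. A searched GATA hexamer was found in 4 of the 9 windows, those of Cpa3, Mcpt4, Fcer1a and Ms4a2. The same held for 15.9% of the 21770 protein-coding promoter windows of the same length. An E-box was found in the Fcer1a window alone, and in 16.2% of all windows. The windows of the tryptases, Kit and Hdc held no match and are not shown. Those of the carboxypeptidase, both chymases and both IgE receptor chains among the members are shown, and they include all 4 with a GATA match. Each is written 5′ to 3′ on the gene's own strand and ends at the base before the start, and capitals mark the matches, in the letters of the strand shown. They lie on the minus strand at chr3:20296363-20296612 (Cpa3), chr14:56299771-56300020 (Mcpt4), chr14:56182133-56182382 (Cma1), chr1:173054782-173055031 (Fcer1a) and chr19:11601084-11601333 (Ms4a2).
Cpa3: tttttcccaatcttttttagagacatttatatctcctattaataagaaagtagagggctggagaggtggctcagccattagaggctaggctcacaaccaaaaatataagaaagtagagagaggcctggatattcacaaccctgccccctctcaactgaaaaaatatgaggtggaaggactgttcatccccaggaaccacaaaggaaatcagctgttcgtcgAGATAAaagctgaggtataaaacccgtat
Mcpt4: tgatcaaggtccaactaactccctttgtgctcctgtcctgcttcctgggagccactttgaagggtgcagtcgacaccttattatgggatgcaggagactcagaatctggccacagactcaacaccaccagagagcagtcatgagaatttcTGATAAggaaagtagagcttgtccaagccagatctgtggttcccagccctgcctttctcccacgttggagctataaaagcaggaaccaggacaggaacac
Cma1: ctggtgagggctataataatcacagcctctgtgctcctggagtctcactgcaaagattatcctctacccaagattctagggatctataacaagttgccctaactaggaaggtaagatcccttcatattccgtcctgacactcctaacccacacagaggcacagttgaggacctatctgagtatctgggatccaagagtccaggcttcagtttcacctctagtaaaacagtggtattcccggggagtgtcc
Fcer1a: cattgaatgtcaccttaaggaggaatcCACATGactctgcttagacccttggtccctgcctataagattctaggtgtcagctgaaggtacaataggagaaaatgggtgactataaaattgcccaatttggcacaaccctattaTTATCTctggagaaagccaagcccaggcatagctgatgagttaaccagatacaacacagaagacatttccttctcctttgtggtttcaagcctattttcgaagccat
Ms4a2: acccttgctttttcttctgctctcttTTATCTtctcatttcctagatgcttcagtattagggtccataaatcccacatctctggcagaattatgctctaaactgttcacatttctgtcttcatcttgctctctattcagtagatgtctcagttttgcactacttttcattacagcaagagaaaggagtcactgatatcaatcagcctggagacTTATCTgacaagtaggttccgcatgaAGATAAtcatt

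The Cpa3 hexamer begins 29 bases before the start and that of Mcpt4 100 bases before it. Fcer1a holds a GATA hexamer on the opposite strand at 107 bases, together with an E-box at 223 bases. Ms4a2 holds 3 GATA hexamers, at 224, 37 and 11 bases before its start, and the first and second of these are on the opposite strand. The Cma1 window holds none of the 4 motifs searched for, nor do those of Tpsb2, Tpsab1, Kit and Hdc. Windows without a match may still hold a GATA hexamer that was not searched for. A match is a description of the letters and not a measured binding site.

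Total counts ranged from 9841583 to 11597730 in the WT libraries and from 8159442 to 12874809 in the sST2-KO libraries. The libraries were scaled by edgeR's TMM factors, and levels are given as deposited counts or as normalized CPM, the counts scaled to a common library size. The labels and methods do not state whether the counting used the strand. In the targeted gene Il1rl1, whose summed counts do not separate sST2 from ST2L and so do not check the deletion, the WT libraries (replicates 1 to 3 in that order, here and below) had 19, 19 and 6 counts, against 55, 69 and 142 in the sST2-KO libraries. Markers of other cell types differed between the groups in level. The summed level of 8 brown adipocyte markers was 8135 to 15312 CPM in WT and 329 to 1779 CPM in sST2-KO libraries. All 8 were called lower (2 without WT replicate 2 and 1 without WT replicate 3), against 7.1% of all genes. Calls fell for all genes in such fits, here and below, from 16.1% to 5.87% without WT replicate 2 and 0.384% without WT replicate 3. The summed level of 12 skeletal muscle markers was 8.14 to 1355 CPM in WT and 3837 to 16491 CPM in sST2-KO libraries, and was highest in sST2-KO replicate 3. Of these 12, only Pvalb was called higher, against 9.04% of all genes. All 12 were called higher without WT replicate 1. None was without WT replicate 2 or 3 or sST2-KO replicate 2 or 3. In bulk tissue, fewer mast cells and less RNA per mast cell cannot be told apart, and neither can more cells and more RNA per cell.

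The 5 granule proteases had at least 1 count in all 6 libraries, though Tpsab1 had no more than the floor of 3 counts in WT replicates 2 and 3 and sST2-KO replicate 2, and sST2-KO replicate 3 stood apart from the other 5 libraries. Together they had 67, 45 and 42 counts in WT, against 144, 45 and 1020 in sST2-KO libraries. In normalized units these sums were 6.25, 4.24 and 5.18 CPM in WT and 10.04, 5.34 and 100.7 CPM in sST2-KO, so the third sST2-KO library held 10.04 times the next highest level. The first sST2-KO library was above the WT libraries, and the second lay within their range. The fits of the members and their shares are therefore also given without sST2-KO replicate 3.

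Cma1 encodes a chymase, a chymotrypsin-like serine protease of the granule, and lies at chr14:56178908-56182132. It had 21, 12 and 11 counts in WT and 52, 18 and 330 in sST2-KO libraries, or 1.96, 1.13 and 1.36 CPM against 3.62, 2.14 and 32.6 CPM. Every sST2-KO library lay above every WT library, as for 21.8% of all genes tested, and the third was 8.99 times the next highest. Mcpt4 encodes another chymase and lies on the same chromosome at chr14:56297086-56299770, among the granule protease genes. It had 7, 12 and 15 counts in WT and 22, 5 and 228 in sST2-KO libraries, or 0.653, 1.13 and 1.85 CPM against 1.53, 0.593 and 22.5 CPM. Here the groups overlapped, since the second sST2-KO library was the lowest of the 6 and the third was 12.2 times the next highest. The Mcpt4 and Cma1 transcripts share 70.3% of aligned bases and no run longer than 27 bases, which is far below the read length of 150 bp.

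Cpa3 encodes carboxypeptidase A3, which trims peptides at their carboxyl ends inside the granule and beyond it, and lies at chr3:20269774-20296362. It had 19, 12 and 9 counts in WT and 27, 14 and 159 in sST2-KO libraries, or 1.77, 1.13 and 1.11 CPM against 1.88, 1.66 and 15.7 CPM. The groups overlapped in CPM, and the third sST2-KO library was 8.34 times the next highest. Exons of the long noncoding RNA Gm31320 overlap Cpa3 on the opposite strand, and Gm31320 itself had 14, 8 and 13 counts in WT and 23, 14 and 56 in sST2-KO libraries, so reads of the pair cannot be separated if the counting ignored the strand.

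The tryptases are trypsin-like proteases of the granule, encoded by Tpsb2 at chr17:25585170-25588079 and Tpsab1 at chr17:25562212-25564541. Tpsb2 had 16, 7 and 6 counts in WT and 35, 6 and 276 in sST2-KO libraries, or 1.49, 0.660 and 0.740 CPM against 2.44, 0.712 and 27.3 CPM. The second sST2-KO library lay inside the WT range, the first above it, and the third was 11.2 times the next highest. Tpsab1 had 4, 2 and 1 counts in WT and 8, 2 and 27 in sST2-KO libraries, and only the third sST2-KO library held more than 10 counts. The transcripts of the pair share 73.6% of aligned bases, with a longest shared run of 39 bases.

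**Figure D1:**
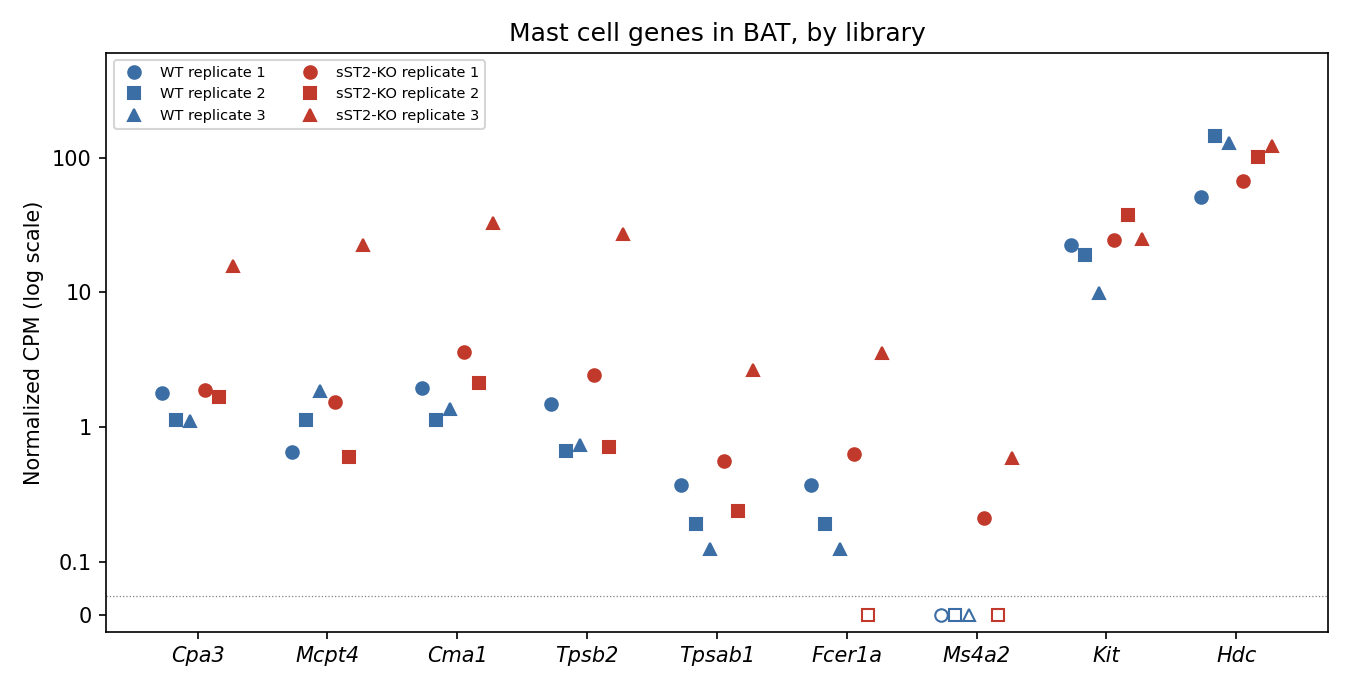
Normalized CPM of the 9 mast cell genes (log scale, with open symbols at 0 for no count) in each of the 3 WT libraries (blue) and 3 sST2-KO libraries (red), with 1 symbol per replicate number. For the proteases and the IgE receptor chains, sST2-KO replicate 3 lies above all other libraries, while Kit is highest in sST2-KO replicate 2 and Hdc in WT replicate 2.

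None of the 6 tested mast cell genes was called by edgeR's quasi-likelihood test (adjusted p below 0.05 with more than a 2-fold difference), against 16.1% of all genes tested. Of the 6, 3 had an unadjusted p under 0.05 (Cpa3, Cma1 and Tpsb2, each higher in sST2-KO), against 19.6% of all genes in that direction. The log2 fold change, sST2-KO over WT, was 3.09 for Cma1 (SE 1.03, adjusted p = 0.0721 in edgeR), and it was 3.36 for Tpsb2 (SE 1.25, adjusted p = 0.0962). Mcpt4 gave 2.77 (SE 1.25, adjusted p = 0.155) and Cpa3 2.24 (SE 0.91, adjusted p = 0.121). DESeq2 called 4 of the 8 mast cell genes to which it gave an adjusted p, against 16.7% of all genes with one, and the 4 were these proteases, with adjusted p values of 0.00373 for Cma1, 0.00769 for Tpsb2, 0.0410 for Cpa3 and 0.0435 for Mcpt4. Without sST2-KO replicate 3, DESeq2 called none of the 6 mast cell genes to which it gave an adjusted p, against 13% of all genes, and the 4 proteases had adjusted p values of 0.334 to 0.933. With all 6 libraries the call of the proteases thus depended on the tool, at almost the same log2 fold changes (2.25 to 3.38 in DESeq2).

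Without sST2-KO replicate 3, edgeR gave log2 fold changes of 0.95 for Cma1 (adjusted p = 0.208), 0.73 for Tpsb2 (adjusted p = 0.505), 0.39 for Cpa3 (adjusted p = 0.603) and -0.11 for Mcpt4 (adjusted p = 0.928). In that fit none of the 6 tested members was called, against 8.9% of all genes, and none had an unadjusted p under 0.05, against 28.7%. Without sST2-KO replicate 2, Cma1 and Tpsb2 were called (adjusted p = 0.0422 and 0.0458 in edgeR), against 12.9% of all genes. With no filter on low counts, Cma1 was called among the 9 (adjusted p = 0.0456), against 10.7%. The median log2 fold change of the 6 tested members was 2.51 and that of all genes 0.03, and without sST2-KO replicate 3 these medians were 0.56 and 0.02. sST2-KO replicate 3 was the highest library for 7 of the 9 members, and for 4 of the 6 tested, against 28% of all genes tested. It was at least 5 times the next library for the 4 tested proteases, a rise shown by 26 of the 14542 genes (0.179%).

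**Figure D2:**
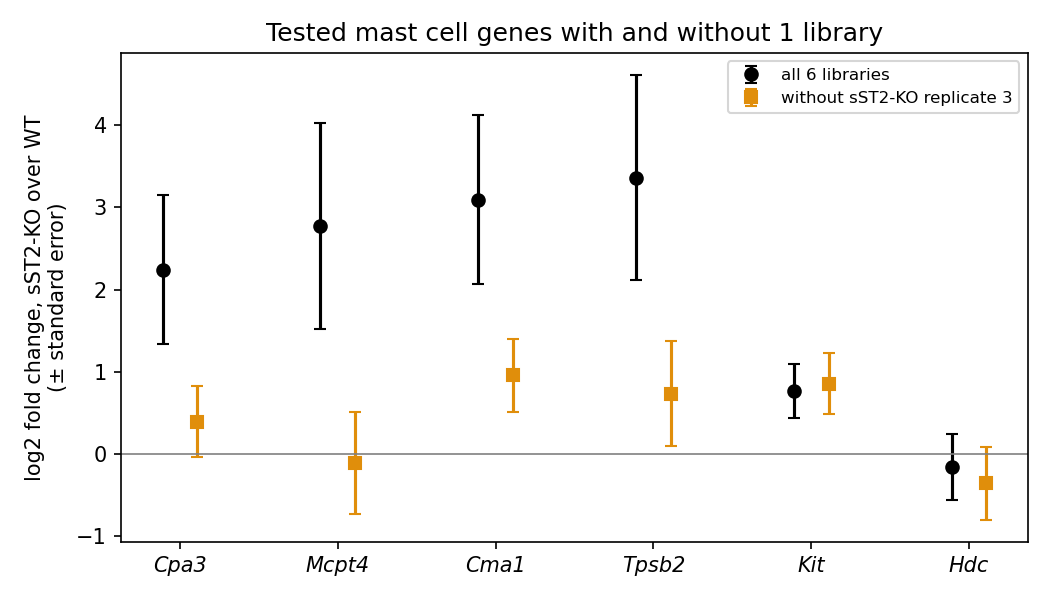
Log2 fold change of the 6 tested mast cell genes, sST2-KO over WT, with its standard error as bars, in edgeR's fit of all 6 libraries (black) and without sST2-KO replicate 3 (orange). The 4 proteases fall from between 2.24 and 3.36 to between -0.11 and 0.95, whereas Kit stays at 0.76 and 0.85.

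To describe the make-up of the protease transcripts apart from their amount, each protease was expressed as a share of the summed counts of the 5. Cma1 held 28.1% ± 2.85 of these counts in WT and 36.2% ± 3.82 in sST2-KO libraries (mean ± SD, n = 3 each). Its share was 31.3%, 26.7% and 26.2% in WT, and in sST2-KO it was 36.1%, 40.0% and 32.4%, so the groups did not overlap. An exact two-sided permutation test of this difference of 8.09 percentage points gave p = 0.1, the smallest that 3 against 3 libraries allow, and 0.5 after adjustment over the 5 shares. The difference was 9.99 points without sST2-KO replicate 3. With counts per kilobase of exon it was 10.1 points, with p = 0.2 in the same permutation test, so the groups then overlapped. With the chymases Mcpt4 and Cma1 summed, their joint share differed by only 0.059 points. The Wilson 95% interval of the share, which covers counting error only, was 29.6% to 35.3% in sST2-KO replicate 3 with its 1020 counts, but 15.3% to 41.1% in WT replicate 3 with 42 counts.

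The other shares overlapped between the groups. Mcpt4 held 24.3% ± 12.8 in WT and 16.2% ± 5.68 in sST2-KO libraries, and its share ranged from 10.4% to 35.7% among the WT libraries alone. Cpa3 held 25.5% ± 3.61 and 21.8% ± 8.20, Tpsb2 held 17.9% ± 5.21 and 21.6% ± 7.26, and Tpsab1 held 4.27% ± 1.80 and 4.22% ± 1.47 (WT and sST2-KO, n = 3 each). Their exact permutation p values were 0.5 for Mcpt4, 0.6 for Cpa3, 0.6 for Tpsb2 and 1 for Tpsab1. Without sST2-KO replicate 3 the differences, sST2-KO minus WT, were -11.1 points for Mcpt4, -0.554 for Cpa3, 0.912 for Tpsb2 and 0.735 for Tpsab1. In sST2-KO replicate 3 all 5 proteases were present, and their shares of 15.6% (Cpa3), 22.4% (Mcpt4), 32.4% (Cma1), 27.1% (Tpsb2) and 2.65% (Tpsab1) show that its high sum did not come from a single gene.

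**Figure D3:**
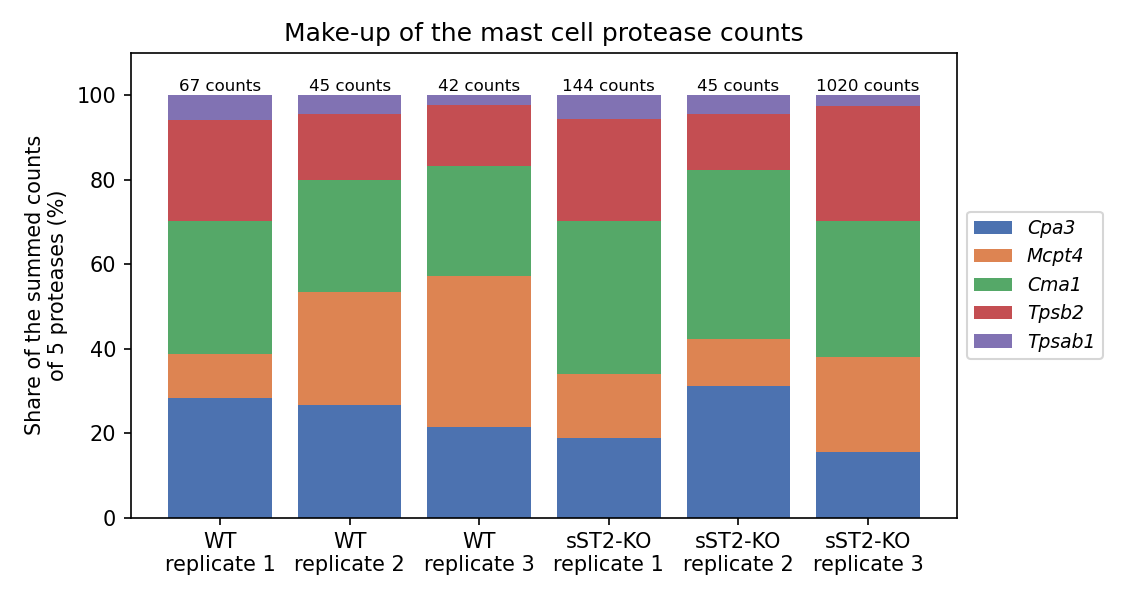
Share (%) of each of the 5 granule proteases in their summed counts, as stacked bars for each library, with the summed counts written above. Cma1 takes 26.2% to 31.3% in the WT libraries and 32.4% to 40.0% in the sST2-KO libraries.

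The high-affinity IgE receptor is built from an alpha chain that binds IgE (Fcer1a, chr1:173048851-173054781), a beta chain that amplifies the signal (Ms4a2, chr19:11592887-11601083) and a gamma chain (Fcer1g) that many myeloid cells share. Fcer1a had 4, 2 and 1 counts in WT and 9, 0 and 36 in sST2-KO libraries. The 0 counts of sST2-KO replicate 2 allow a level of up to 0.356 CPM, set by 3 counts in that library, which is about the highest WT level of 0.373 CPM. Ms4a2 had no count in any WT library, which allows up to 0.280, 0.283 and 0.370 CPM in replicates 1 to 3, and it had 3, 0 and 6 counts in the sST2-KO libraries. No fold is given for Ms4a2, and at this depth a difference in either alpha or beta chain outside sST2-KO replicate 3 was not detectable. With no expression filter, edgeR gave Fcer1a a log2 fold change of 2.51 (SE 1.15, adjusted p = 0.202) and Tpsab1 2.24 (SE 0.92, adjusted p = 0.152). These values were 0.57 (adjusted p = 0.792) and 0.80 (adjusted p = 0.684) without sST2-KO replicate 3.

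The gamma chain gene Fcer1g was more abundant and was called higher in sST2-KO. It had 578, 590 and 302 counts in WT and 1667, 1138 and 3521 in sST2-KO libraries, and the groups did not overlap, as for 21.8% of all genes in that direction. Its log2 fold change was 2.03 (SE 0.44, adjusted p = 0.0231 in edgeR), and without sST2-KO replicate 3 it was 1.35 (adjusted p = 0.0251). Leaving out a WT library kept the direction but not the call (adjusted p = 0.0542, 0.0674 and 0.101 without WT replicates 1, 2 and 3). The summed level of 10 macrophage markers, cells that also carry the gamma chain, was 804 to 1092 CPM in WT and 1418 to 6049 CPM in sST2-KO libraries. Of these markers, 2 were called higher (none without any 1 of the WT libraries and 1 without sST2-KO replicate 3), against 9.04% of all genes. All 10 were highest in sST2-KO replicate 3, as were 28% of all genes, and the part of the markers in the Fcer1g result was not tested.

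The order of the libraries for Kit was unlike that of the granule genes. Kit lies at chr5:75735576-75817404 and had 240, 200 and 80 counts in WT and 354, 315 and 253 in sST2-KO libraries, or 22.4, 18.8 and 9.86 CPM against 24.7, 37.4 and 25.0 CPM. All 3 sST2-KO libraries lay above all 3 WT libraries, as for Cma1 and 21.8% of all genes tested, but the second, not the third, was the highest. Its mean was 17.0 ± 6.46 CPM in WT and 29.0 ± 7.25 CPM in sST2-KO libraries (SD, n = 3 each). The log2 fold change was 0.76 (SE 0.33, adjusted p = 0.142 in edgeR, and 0.145 in DESeq2), and without sST2-KO replicate 3 it was 0.85 (adjusted p = 0.180). The difference was not called with or without that library. Exons of Gm72966, a long noncoding RNA on the opposite strand, overlap Kit, and this RNA has no row in the table under that symbol.

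Hdc, whose enzyme makes histamine from histidine, lies at chr2:126435558-126461318 and had the most counts of the 9 genes. There were 548, 1535 and 1052 counts in WT and 968, 856 and 1240 in sST2-KO libraries, or 51.1, 145 and 130 CPM against 67.5, 102 and 122 CPM. The groups overlapped fully, and the lowest and the highest library were both WT. The log2 fold change was -0.16 (SE 0.40, adjusted p = 0.805 in edgeR) and -0.36 without sST2-KO replicate 3 (adjusted p = 0.641), so no difference was detectable against this spread. Its sign turned with total-count scaling, under which Hdc gave 0.13 and the median of all genes rose from 0.03 to 0.29.

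Kit and Hdc were also set against the granule genes within each library. For each protease count there were 3.58, 4.44 and 1.90 Kit counts in WT, against 2.46, 7.0 and 0.248 in sST2-KO libraries. For Hdc these ratios were 8.18, 34.1 and 25.0 in WT and 6.72, 19.0 and 1.22 in sST2-KO libraries. Both ratios were lowest in sST2-KO replicate 3, which had the most protease counts but neither the most Kit nor the most Hdc. Per kilobase of annotated exon, the mean WT level was 15.8 CPM for Hdc, 1.80 for Kit, 1.36 for Cma1, 1.09 for Mcpt4, 0.84 for Cpa3, 0.44 for Tpsb2, 0.23 for Fcer1a and 0.11 for Tpsab1. In sST2-KO libraries the means per kilobase were 14.1 CPM for Hdc, 11.7 for Cma1, 7.41 for Mcpt4, 4.63 for Tpsb2, 4.01 for Cpa3 and 3.06 for Kit, and those of the proteases rest on replicate 3.

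Other genes that mark mast cell types were checked against the members. Mcpt1 and Mcpt2, the chymases of mucosal mast cells, had no count in any library, nor did Mcpt9. The receptors of connective tissue mast cells, Mrgprb1 and Mrgprb2, had 1, 0 and 0 counts each in WT. In sST2-KO libraries, Mrgprb1 had 3, 0 and 19 and Mrgprb2 had 0, 0 and 4, so both were highest in sST2-KO replicate 3. Rgs13, a regulator of G protein signaling in mast cells, had 1 count in each of sST2-KO replicates 1 and 3 and none elsewhere. None of the 7 other mast cell proteases on the list passed the filter. Their summed counts were 7, 2 and 2 in WT and 37, 3 and 18 in sST2-KO libraries. In normalized units the sums were at most 0.653 CPM in WT and 2.58, 0.356 and 1.78 CPM in sST2-KO libraries. The first sST2-KO library, not the third, thus held the highest sum.

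Fcer1a and Ms4a2 are shared with basophils, so basophil markers stand beside them. Mcpt8, a basophil protease, had 0, 0 and 1 counts in WT and 10, 3 and 4 in sST2-KO libraries, and Prss34, another, had 2, 0 and 1 against 13, 1 and 4. Both were highest in the first sST2-KO library, while Fcer1a and Ms4a2 were highest in the third. The summed level of the 7 basophil markers that are not members was 3.45 to 7.74 CPM in WT and 17.1, 22.1 and 57.7 CPM in sST2-KO libraries, but most of this sum was Basp1, which encodes a membrane-associated protein that is not particular to basophils. Basp1 was the only one of the 7 to pass the filter and was called higher, a call lost without WT replicate 2 or 3. The other 6 summed to 1.59, 0.942 and 1.23 CPM in WT and to 2.58, 1.78 and 2.07 CPM in sST2-KO libraries, with the first, not the third, the highest. Of 7 melanocyte markers, 4 (Tyr, Tyrp1, Slc45a2 and Oca2) were at 0 in all libraries, and none was called. The part of these cells in the results was not tested further.

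**Figure D4:**
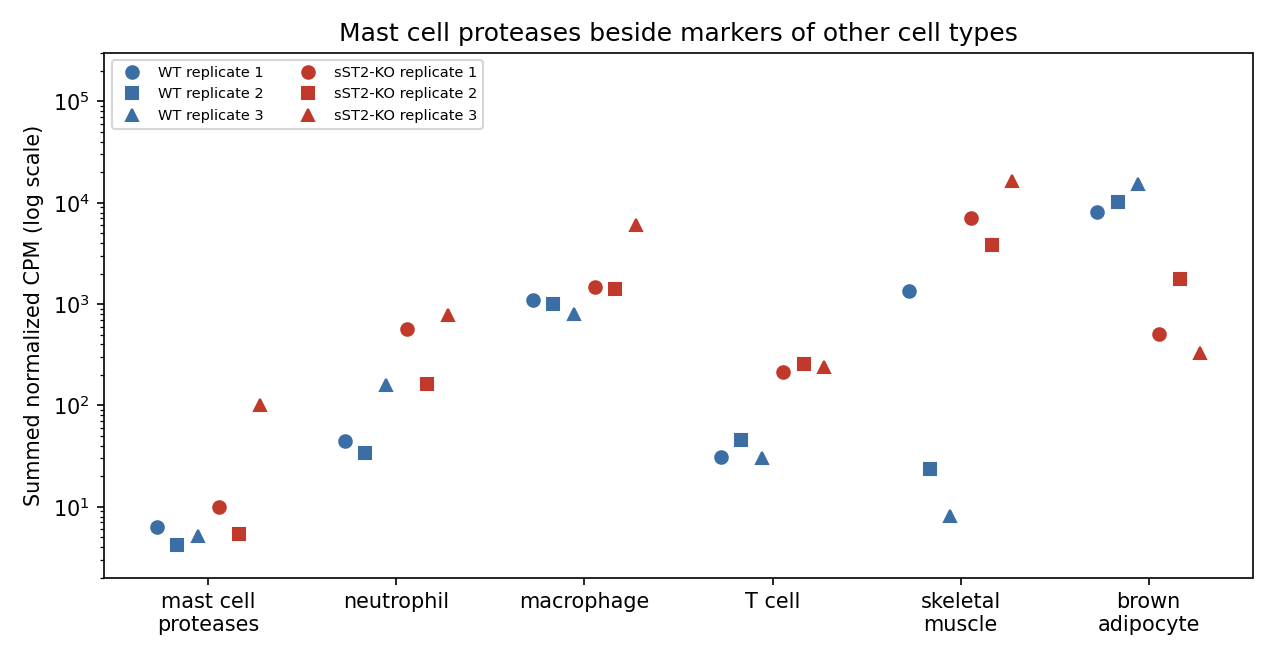
Summed normalized CPM (log scale) of the 5 mast cell proteases and of marker lists for neutrophils, macrophages, T cells, skeletal muscle and brown adipocytes in each WT (blue) and sST2-KO (red) library. The protease sum reaches 100.7 CPM in sST2-KO replicate 3 and at most 10.04 CPM elsewhere, while the T cell markers lie at 211 to 255 CPM in all 3 sST2-KO libraries and at 30.1 to 45.8 CPM in WT.

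Markers of other immune cells were not all highest in the same library. The summed T cell markers were 30.9, 45.8 and 30.1 CPM in WT and 211, 255 and 240 CPM in sST2-KO libraries, and 8 of the 9 tested were called higher, against 9.04% of all genes. The summed neutrophil markers were 44.7, 33.6 and 157 CPM in WT and 562, 163 and 789 CPM in sST2-KO libraries, with the third sST2-KO library the highest. Of the 10, 4 were called higher (0 or 1 without any 1 of the WT libraries or sST2-KO replicate 3), against 9.04% of all genes. Type 2 innate lymphoid cells (ILC2), which also carry ST2L, were followed by 11 markers that include Il1rl1. Their sum was 50.7, 120 and 32.8 CPM in WT and 101.5, 143 and 461 CPM in sST2-KO libraries, so the third was 3.22 times the next highest. Of the 8 tested, 5 were called higher (Gata3, Il7r, Klrg1, Il2ra and Il1rl1), against 9.04% of all genes. These calls became 2 without sST2-KO replicate 3 or WT replicate 1, 1 without WT replicate 2, 0 without WT replicate 3 and 3 without sST2-KO replicate 2. Whether ILC2 or T cells carried these genes was not tested. The macrophage, neutrophil and ILC2 sums were thus highest in the same library as the proteases, and the T cell sum was not. Whether these cells, or the muscle markers above, bear on the protease levels was not tested.

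Genes of the IL-33 axis and of mast cell growth were next compared. Il1rl1, the receptor gene, was called higher with a log2 fold change of 2.56 (SE 0.57, adjusted p = 0.0239 in edgeR), and without sST2-KO replicate 3 it was 2.02 (adjusted p = 0.0541). Leaving out a WT library gave adjusted p values of 0.0515 to 0.0936. Il33, its ligand, had 157, 145 and 73 counts in WT and 120, 221 and 610 in sST2-KO libraries, and its log2 fold change of 1.34 was not called (adjusted p = 0.166). It was 0.46 (adjusted p = 0.578) without sST2-KO replicate 3 and 1.79 (adjusted p = 0.0330) without sST2-KO replicate 1. Kitl, which encodes stem cell factor, gave 0.34 (adjusted p = 0.596), with 0.48 without sST2-KO replicate 3 and a turned sign without sST2-KO replicate 2. Mitf gave 1.36 (adjusted p = 0.0830 in edgeR and 0.0344 in DESeq2). Gata2 gave -0.54 (adjusted p = 0.152 in edgeR) with all sST2-KO libraries below all WT libraries, as for 19.7% of all genes tested. Without sST2-KO replicate 3, Mitf gave 0.86 (adjusted p = 0.244 in edgeR and 0.257 in DESeq2) and Gata2 -0.37 (adjusted p = 0.323). Of the 13 tested genes among 16 KIT ligand and lineage regulators, 5 were called higher (Stat5a, Csf2rb, Csf2rb2, Runx1 and Id2), against 9.04% of all genes, and none lower, and their median log2 fold change was 1.04. Without WT replicate 3, 0 of them were called, and 3 without WT replicate 2 or sST2-KO replicate 2 or 3.

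Of 21 genes of Fc epsilon receptor signaling, all were tested, 15 were called higher and none lower, and the median log2 fold change was 1.70. Beside Fcer1g they included the kinases Lyn, Syk and Btk, the adaptors Lat, Lat2 and Lcp2, and the phosphatases Inpp5d and Ptpn6, which many leukocytes share with mast cells. Against these, 9.04% of all genes tested were called higher. The count of 15 fell to 6 without WT replicate 2 and to 1 without WT replicate 3, in fits that called 871 and 58 of all genes in place of 2348. In edgeR most of the shared signaling genes were thus called and none of the 6 tested mast cell genes, a contrast that was not tested as such.

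Granule and mediator genes were mixed. Srgn, which encodes the granule proteoglycan serglycin of many leukocytes, had 1147, 893 and 724 counts in WT and 2566, 2114 and 4410 in sST2-KO libraries, and was called higher (log2 fold change 1.63, adjusted p = 0.0208 in edgeR, but 0.0736 without WT replicate 2 and 0.0914 without WT replicate 3). Its log2 fold change was 1.20 (adjusted p = 0.0316) without sST2-KO replicate 3. Slc18a2, the vesicular transporter that loads histamine into granules, had 19, 14 and 14 counts in WT and 22, 8 and 24 in sST2-KO libraries, and a log2 fold change of 0.02 (SE 0.42, adjusted p = 0.979) whose sign turned in several fits. Tph1, an enzyme of serotonin synthesis that mouse mast cells express, had 3, 0 and 0 counts in WT and 5, 3 and 43 in sST2-KO libraries, and it was named with its values in view. Of the 10 tested among 17 other surface and granule genes, 4 were called higher (Srgn, Il1rl1, Itgb7 and Gpr35), against 9.04% of all genes, and the median log2 fold change was 0.78. These 4 calls became 1 without WT replicate 2, 0 without WT replicate 3 and 2 without sST2-KO replicate 3.

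Among the enzymes of histamine breakdown and eicosanoid synthesis, Hnmt, which inactivates histamine, gave a log2 fold change of -0.95 (SE 0.36, adjusted p = 0.0983 in edgeR). All its sST2-KO libraries lay below all WT libraries, as for 19.7% of all genes tested. It gave -0.70 (adjusted p = 0.194) without sST2-KO replicate 3. Alox5ap, the partner protein of 5-lipoxygenase, was called higher (1.93, adjusted p = 0.0326), as was Hpgds, the prostaglandin D synthase of mast cells and other myeloid cells (1.28, adjusted p = 0.0292). Both calls were lost without WT replicate 2 or 3, and that of Alox5ap without WT replicate 1 and that of Hpgds without sST2-KO replicate 3. Without that library Alox5ap gave 1.12 (adjusted p = 0.0282) and Hpgds 1.09 (adjusted p = 0.0809). Alox5 (0.34, adjusted p = 0.692), Ltc4s (-0.20, adjusted p = 0.645) and Ptgs1 (0.23, adjusted p = 0.683) were not called, and each changed sign in some fit. Of the 13 tested among 18 such genes, 5 were called higher, against 9.04% of all genes, and none lower, and the other 3 of the 5 were the receptors Hrh2 and Cysltr2 and the prostaglandin synthase Ptgs2. Without WT replicate 2 or 3 none of the 5 was called, and 3 without WT replicate 1 or sST2-KO replicate 3. Of 14 cytokines and growth factors that mast cells can secrete, 8 were tested and 6 were called higher (Il6, Tnf, Ccl2, Ccl7, Il10 and Tgfb1), against 9.04% of all genes, all of which other cells also make. None of the 6 was called without WT replicate 3, and 6 were called without sST2-KO replicate 3.

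The genes whose pattern over the 6 libraries was most like that of the summed proteases were found by Pearson's r on the log2 scale, as a description. They were Rab13 (r = 0.998), 1700071M16Rik (0.995), Tmem8 (0.994), Mapk9 (0.993) and Med11 (0.991). The measure reads only shape: Rab13 ranged from 15.0 to 20.0 CPM and had a log2 fold change of 0.17 (adjusted p = 0.582), while Tmem8 reached 67.1 CPM in sST2-KO replicate 3 and at most 17.6 CPM elsewhere. Without sST2-KO replicate 3, which lay far above the rest, r over the other 5 libraries was 0.977, 0.919, 0.890, 0.936 and 0.878 in the same order. Over all 6 libraries, 61 of 14536 genes reached r of 0.95. Among the tested members, r with the sum to which they contribute was 0.995 for Cma1, 0.995 for Tpsb2, 0.988 for Cpa3 and 0.948 for Mcpt4, against 0.229 for Kit and 0.111 for Hdc, which are not in the sum.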

How the data were processed

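RNA-seq of BAT from 3 WT and 3 sST2-KO mice was analyzed from the deposited table of counts per gene symbol. The authors made these counts from poly-A-selected 150 bp paired-end libraries, aligned to mm39 with HISAT2 (2.2.1 per the submitters' processing notes, with FastQC 0.12.1) and counted with htseq-count, whose version and strand setting are not given in the sources used here. No normalization had been applied. Libraries were assigned by title, and the number of sample columns not used was 0.

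The edgeR package (4.0.16, R 4.3.3) was run with filterByExpr, TMM factors and the quasi-likelihood test on group alone, and p-values were adjusted by the Benjamini-Hochberg method across 14542 genes. Calls required an adjusted p below 0.05 and more than a 2-fold difference. Standard errors were log2 fold changes divided by the square root of F. Within a group, pairs of libraries gave chi-square values per degree of freedom of 36.6 to 104, which is above sampling noise. Where only the labels separate replicates, p-values measure the spread between these samples. The steps were tested on simulated data that held no outlying library, so that test does not bear on results that rest on a single library.

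The members, the 15 related lists and the named genes (the 9 members, 21 genes of mast cell biology and the 5 genes most like the protease sum) were chosen with earlier results of these data known. Shares used Wilson 95% intervals and exact permutation tests (scipy 1.17.1). Alternative fits used DESeq2 (1.42.0), RLE factors, library totals, no filter, a stricter filter (10 counts in every library), robust estimation, a block for the replicate number, or 5 of the 6 libraries. Fits with no filter that also left out an sST2-KO library, and DESeq2 without sST2-KO replicate 3, were added after the values were seen. Positions, overlaps, transcript comparisons and promoter windows came from GRCm39 with the GENCODE annotation. Amino acid sequences were not used here.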

Additional observations from a re-analysis of the deposited data

How the results depend on the processing

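Of the mast cell genes, 0 of 6 tested were called in the fit reported, 4 of 8 by DESeq2 (against 16.7% of all genes) and 1 of 9 with no filter (Cma1, adjusted p = 0.0456 in edgeR, against 10.7% of all genes), with or without the 2-fold minimum. Leaving out each library gave 0 to 2, against 0.384% to 15.8% of all genes over these fits. The 2 were Cma1 and Tpsb2 without sST2-KO replicate 2. With no filter, 4 members were called without sST2-KO replicate 1, 5 without replicate 2 and 0 without replicate 3 (against 12.7%, 12.2% and 10% of all genes). DESeq2 without sST2-KO replicate 3 also called 0. Over all alternative fits the adjusted p ranged from 0.00315 to 0.334 for Cma1 and from 0.0898 to 0.415 for Kit. Without the fits added after the values were seen, the ranges were 0.00373 to 0.208 for Cma1 and 0.0898 to 0.362 for Kit. None was called with RLE factors (against 16% of all genes), total counts (17.4%), robust estimation (16.1%) or the replicate block (0%). The stricter filter also called none, against 15.3% of all genes, but it tested only 3 members and removed the others.

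Of the related lists' 131 tested genes, 64 were called (55 higher, 9 lower), against 16.1% of all genes (9.04% higher, 7.1% lower). Leaving out each library gave 8 to 65 (7 to 58 higher, 1 to 10 lower), with 8 (7 and 1) without WT replicate 3 and 26 (24 and 2) without WT replicate 2. Those 2 fits called 0.384% and 5.87% of all genes. The replicate block called 0, 0 higher and 0 lower, as it called none of all genes. In that fit only Kit of the members had an unadjusted p under 0.05, and the share of all genes at that threshold was not computed. The deviations of same-numbered libraries from their group means had correlations of -0.06, 0.21 and -0.31. With 3 libraries per group these values cannot decide whether the numbers pair the mice.

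Signs turned as follows (log2 fold change, cause not tested). Over the libraries left out in turn, Mcpt4 ranged from -0.11 to 3.30, Hdc from -0.50 to 0.10, Kitl from -0.16 to 0.65, Slc18a2 from -0.35 to 0.25, Alox5 from -0.20 to 0.68 and Ptgs1 from -0.063 to 0.60. With no filter, Mcpt4 was -0.12, Slc18a2 -0.34, Alox5 -0.19 and Ptgs1 -0.049 without sST2-KO replicate 3, Kitl -0.15 without replicate 2, and Hdc 0.043 without replicate 1. In DESeq2 without sST2-KO replicate 3, Mcpt4 was -0.17, Slc18a2 -0.37, Alox5 -0.22 and Ptgs1 -0.075. With total counts, Hdc was 0.13 and Ltc4s 0.067, and with the replicate block Slc18a2 was -0.054. Total counts moved the median of all genes by 0.26 and the calls from 1315 higher and 1033 lower to 1840 and 691. With the chymases summed, the difference in share was 0.059 percentage points, which turned the sign of Mcpt4 and left almost none of the 8.09 points of Cma1. The difference of Tpsab1 was 3.61 with the tryptases summed and -0.992 to 0.803 over the libraries left out. The other shares kept their sign.

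Single calls of Il1rl1, Srgn, Fcer1g, Alox5ap and Hpgds were lost when a WT library was left out or with the block. Low counts limit the proteases in 5 of 6 libraries, and 3 of the 9 members had too few counts to pass the filter.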

Other observations

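Of the 26 tested genes whose level in sST2-KO replicate 3 was at least 5 times that of any other library, 22 were not mast cell genes. Of these 22, edgeR called 13 higher in sST2-KO, against 9.04% of all genes. Because the set was picked for a high sST2-KO library, higher calls were favored in advance. The names below were chosen with the values in view, and no test was run on the group. The 22 included cytokine and chemokine genes of activated myeloid cells. Cxcl3 had 0.0933, 0.188 and 0 CPM in WT and 4.53, 3.32 and 124 CPM in sST2-KO libraries, and Cxcl2 had 2.24, 3.58 and 0.740 against 43.8, 16.6 and 405 CPM. Il1b had 1.31, 2.73 and 3.45 CPM in WT and 32.3, 13.2 and 192 CPM in sST2-KO libraries, and Acod1, which encodes the itaconate-producing enzyme of activated macrophages, had 1.03, 1.41 and 0.740 against 40.7, 9.26 and 211 CPM. For these 4 genes all sST2-KO libraries lay above all WT libraries, as for 21.8% of all genes tested. Of the 4 proteases in the set this held for Cma1 alone. The selection of the set fixed the place of sST2-KO replicate 3 in advance, and no contrast between these genes and the proteases was tested.

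Some of the 22 were low in sST2-KO replicates 1 and 2 as well as in WT, as the proteases were. Fgf7, a growth factor gene of mesenchymal cells, had 4.20, 2.07 and 1.73 CPM in WT and 2.44, 3.68 and 22.7 CPM in sST2-KO libraries, and Lyz1, a lysozyme gene, had 0.653, 0.754 and 1.97 against 0.906, 0.356 and 10.3 CPM. Myl2, a myosin light chain gene of slow muscle and heart, did not share this pattern. It had 14.8, 0 and 0 CPM in WT and 18.1, 5.70 and 97.3 CPM in sST2-KO libraries.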
